A study of Mus musculus with 288 samples.

Results

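The cerebellum was set against 5 peripheral tissues (lung, liver, kidney, muscle and heart) in mice kept in normoxia. All 24 cerebellum libraries of that group (1 of 12 groups by tissue and treatment in the series, each of 24 libraries) were compared with the 120 peripheral libraries of the same group, 24 per tissue. Per gene, the cerebellum was compared with the peripheral tissue of highest level, among the 14256 of 35904 genes that reached a mean of 5 TPM (the length-corrected share of a gene among the transcripts of a library) in any of the 6 tissues. The animals were wild-type male C57BL/6J mice, 8 weeks old, kept for 7 days in normoxia and then for 2 days in constant darkness with room air. Tissues were taken on the second dark day every 3 hours, 8 times in all, and each time point has 3 replicates. A second group, which had no part in the calls, had 7 days of intermittent hypoxia (IH, oxygen between 21% and 8%) before the same darkness. All animals were of the same genotype. The labels do not say which libraries came from the same animal, so p-values measure the spread between libraries. Means are given ± SD over 24 libraries of a tissue, and differences between tissues ± SE.

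The cerebellar cortex holds very many granule cells, small excitatory neurons whose axons run as parallel fibres onto the dendrites of Purkinje cells. Purkinje cells are inhibitory neurons and send the output of the cortex to the cerebellar nuclei. Bergmann glia, other astrocytes and myelinating oligodendrocytes surround these neurons, and neurons in general depend on voltage-gated channels, regulated vesicle release and long-distance axonal transport.

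A gene was called above all 5 tissues when limma, fitted over all normoxia libraries of the 6 tissues, gave a positive difference to each tissue, the largest of the 5 p-values was at most 0.05 after Benjamini-Hochberg adjustment over all genes tested, and the smallest difference was at least 1.5-fold. Differences are on the scale of log2(scaled TPM + 0.5), which understates the change of low genes, and below was defined as the mirror image. By this rule 2140 genes were above all 5 tissues (15.0% of those tested) and 1233 were below all 5 (8.65%). Of the genes above, 893 differed by at least 4-fold, 304 (2.13% of those tested) by at least 16-fold and 12 by at least 256-fold. Of the genes below, 98 differed by at least 4-fold and 22 by at least 8-fold. In 1384 genes (9.71%) the lowest cerebellum library lay above all 120 peripheral libraries, and in 84 (0.589%) the highest lay below all of them. A total of 1279 genes reached a mean of 5 TPM in the cerebellum only, so that the filter alone asked for a difference, and 1102 of these were called above. With TPM as deposited, without the median-of-ratios scaling, the calls were 2688 above and 474 below, the share of calls that were above moved from 63.4% to 85.0%, and the median difference over all genes moved by 0.25 on the log2 scale. On scaled values the peripheral tissue nearest to the cerebellum was the heart for 27.3% of the genes above and the lung for 22.6%. Of all genes tested, 13.3% had their highest scaled peripheral level in the heart and 24.5% in the lung. The tissue of highest mean TPM and that of highest scaled level differed in 5386 of the 14256 genes tested. The genes above ranged from transcripts with next to no peripheral expression to widely used ones. The highest peripheral mean was under 1 TPM for 551 of them and at least 5 TPM for 1038.

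**Figure D1:**
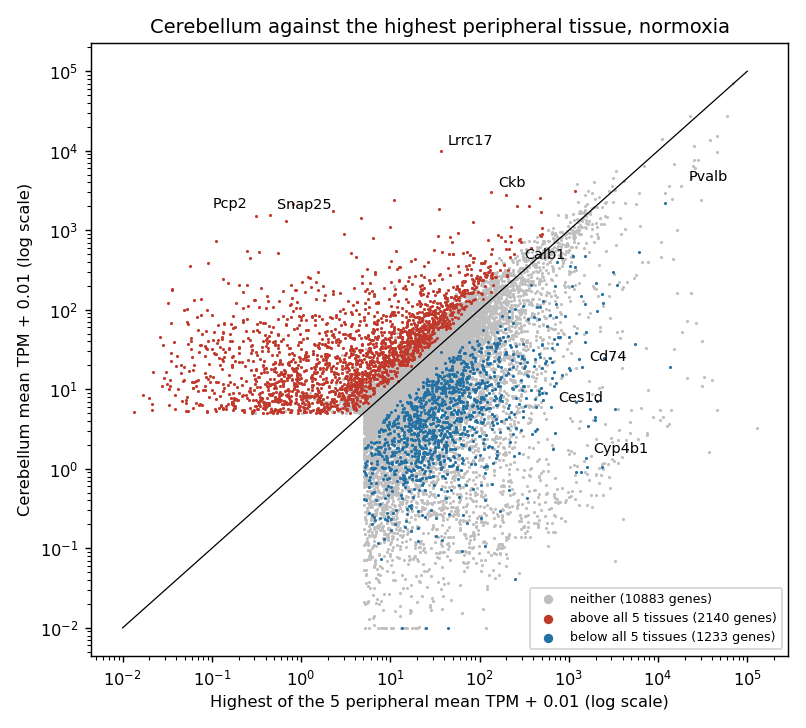
Mean TPM in the cerebellum (vertical, 24 libraries) against the highest of the 5 peripheral means (horizontal, 24 libraries per tissue) for the 14256 genes tested, both on log axes after adding 0.01. The line marks equal levels, red points are the 2140 genes above all 5 tissues and blue points the 1233 below all 5.

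The 12 cerebellar markers stood at 48.2% to 168% of their usual level in the cerebellum libraries (the median over the list of each gene's share of its normoxia median) and at no more than 0.105% of it in any normoxia library of a peripheral tissue, as the labels have it. Transcripts of other tissues were present in addition. In each cerebellum library the median of 12 heart marker genes, all marker lists of this kind written after the data had been seen, stood between 0.314% and 15.0% of the level in the heart libraries, in the same measure (median 3.74%). The 12 muscle markers reached 5.68% in 1 library (19:30, replicate 3), and kidney, liver and lung markers stayed at or below 0.297% in all 24. The 9 cerebellum libraries with over 5% of heart or over 1% of muscle marker level came mostly from the hours between 1:30 and 10:30. Without them, a choice made after seeing the data, 2152 genes were above and 1257 below, of which 2024 and 1108 were among the calls with all libraries. A transcript that marks a cell type of the tissue varied too. That of Ttr, which encodes the thyroid hormone carrier transthyretin and marks the choroid plexus, ran from 38.3 to 6055 TPM (median 2984) over the cerebellum libraries. Without Ttr the summed choroid plexus markers had a 2.89-fold range. In bulk tissue, fewer cells of a type and less RNA per cell cannot be told apart.

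**Figure D2:**
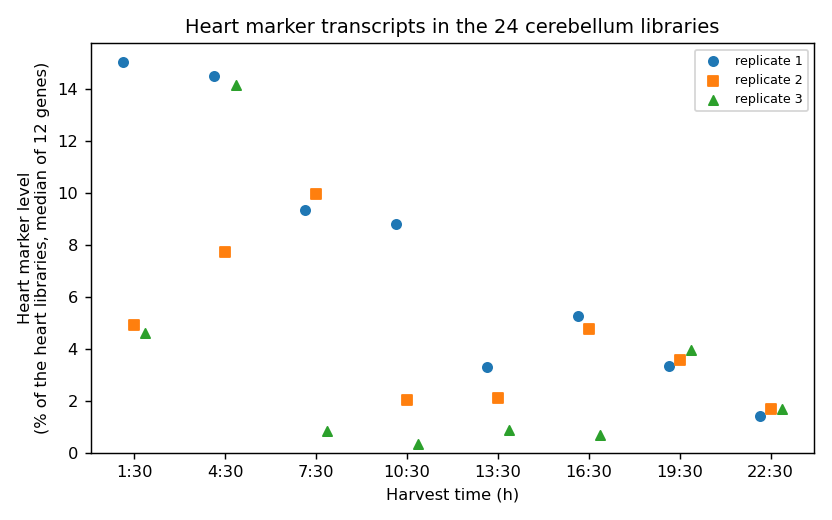
Level of 12 heart marker genes in each of the 24 normoxia cerebellum libraries (vertical, median of the genes in percent of the heart libraries) by harvest time (horizontal), with a symbol for each replicate number. The highest value is 15.0% at 1:30 and the lowest 0.314% at 10:30.

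The largest differences belonged to genes of neurons and myelin that stayed at or under 5.10 TPM in every peripheral library. Pcp2 (chromosome 8, 3623371 to 3625545, GRCm38), a regulator of G proteins made in Purkinje cells, ran from 519 to 2847 TPM (median 1583) over the cerebellum libraries and from 0 to 1.51 TPM over the 120 peripheral ones. The groups did not overlap, and the difference to muscle, its highest peripheral tissue, was 10.36 ± 0.10 on the log2 scale (limma, adjusted p = 2.18e-133). Snap25 (chromosome 2, 136713453 to 136782428), the vesicle fusion protein of nerve terminals, ran from 953 to 2407 TPM (median 1594) in the cerebellum and from 0 to 1.44 TPM elsewhere, and was higher than heart, its highest tissue on scaled values, by 10.19 ± 0.11. Gng13 (chromosome 17, 25717171 to 25719406), a G protein gamma subunit, ran from 1063 to 2891 TPM (median 2113) in the cerebellum and from 0 to 1.89 TPM elsewhere, and was higher than heart by 9.98 ± 0.10. Neither gene had a cerebellum library within the range of the peripheral ones. Calb2 (chromosome 8, 110137502 to 110168210), the calcium-binding protein calretinin, was found at 722 ± 160.4 TPM (SD, n = 24) and no more than 0.502 TPM in any peripheral library, a difference of 9.73 ± 0.05. The other genes among the 12 of largest difference were Stmn3, a microtubule regulator, Cbln1, the granule cell protein that bridges parallel fibres and Purkinje cells, Sncb, encoding beta-synuclein, Pcsk1n, an inhibitor of prohormone convertase 1, Gabra6, a GABA-A receptor subunit of granule cells, Mobp, a myelin protein, Pcp4, a calmodulin-binding peptide, and Tagln3, an actin-binding protein of neurons. Their differences ran from 8.28 in Tagln3 to 9.46 in Stmn3, and the adjusted p-values of all 12 were 3.45e-118 or lower (limma).

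**Figure D3:**
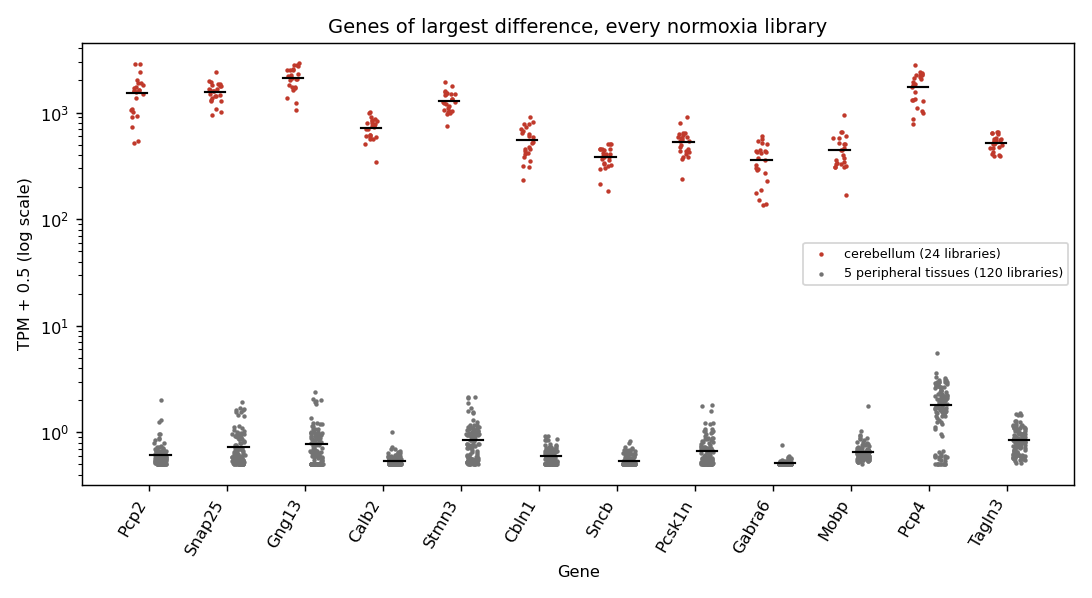
TPM + 0.5 on a log axis for the 12 genes of largest difference, in every normoxia library. Each red point is 1 of 24 cerebellum libraries, each grey point 1 of 120 peripheral libraries, and the short lines are means. In no gene do the red and the grey points overlap.

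Among genes at least 16-fold above every tissue, the most abundant in the cerebellum was Lrrc17, a secreted leucine-rich repeat protein. It ran from 1198 to 23222 TPM (median 8087), a 19.4-fold range, and from 0.291 to 99.3 TPM elsewhere, and was higher than heart by 7.00 ± 0.18. In the GENCODE annotation the gene (chromosome 5, 21543559 to 21575904) is overlapped on the other strand by Fbxl13, and whether the counting used strand is not given in the sources used here. Ckb, the creatine kinase of brain, stood at 3016 ± 742 TPM in the cerebellum and at 135 ± 27.7 TPM in the kidney, its highest peripheral tissue (difference 4.06 ± 0.09). Mt3, the brain metallothionein, stood at 2429.7 ± 504 TPM and at no more than 23.7 TPM in any peripheral library (6.88 ± 0.12 against the heart). Glial genes followed. Mbp, a main protein of myelin, stood at 1873 ± 672 TPM, and S100b, a calcium-binding protein of astrocytes, at 1418 ± 190.2 TPM. Muscle held the highest peripheral level of Mbp, at 35.2 ± 8.34 TPM, and of S100b, at 4.66 ± 1.04 TPM. Of these genes S100b was the steadiest, with a 1.80-fold range over the cerebellum libraries.

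Marker lists of the cell types of the cerebellar cortex were read against the 15.0% of all genes called above. Of the 1279 genes that reached a mean of 5 TPM in the cerebellum only, 1102 were called above. For list members that entered the same way, the filter already asked for a difference. Their number is not given here, so the shares do not test the lists against all genes. All 18 granule cell markers tested (of 19 listed) were above all 5 tissues, with a median difference of 5.89 beside -1.04 over all genes. They include the transcription factors Neurod1 and Zic1, which ran from 88.1 to 274 TPM (median 186) and from 85.7 to 387 TPM (median 177), while neither exceeded 0.790 TPM in a peripheral library. Slc17a7, the vesicular glutamate transporter of these cells, differed by 2.17 ± 0.12 from the heart, and Pax6, a factor of granule cell precursors, by 5.73 ± 0.10. The smallest difference was that of Reln, the secreted signal of neuron layering, which was higher than liver by 0.80 ± 0.10 (adjusted p = 2.01e-12, limma). Without replicate 3 the difference of Reln was 0.42, under the 1.5-fold limit. Of 20 Purkinje cell markers tested, 19 were above, with a median of 3.76. The exception was Calb1, the calcium buffer calbindin, at 372 ± 118 TPM in the cerebellum and 263 ± 54.2 TPM in the kidney, where it serves calcium transport. The cerebellum libraries ran from 163 to 637 TPM (median 391), overlapped those of the kidney and differed from them by 0.06 ± 0.09. After Pcp2 and Pcp4 the list was led by Ppp1r17, a phosphatase inhibitor of Purkinje cells (7.85 ± 0.05), and Dner, a Notch ligand (7.18 ± 0.04). Itpr1, the calcium release channel of these cells, was the nearest to the periphery among those called, at 0.64 ± 0.12 against the kidney, and fell under the 1.5-fold limit without replicate 3 (0.54) or without the time point 10:30 (0.51). Among interneuron and GABA genes 8 of 12 were above, led by the GABA-synthesizing enzyme Gad1 (7.24 ± 0.07). Pvalb, the calcium buffer parvalbumin, was abundant in the cerebellum at 3565 ± 1485 TPM and more so in the muscle at 18155 ± 1768 TPM. Sst, the peptide somatostatin, was called above and varied most of these, from 4.78 to 269 TPM (median 43.9).

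Of 16 astrocyte and Bergmann glia markers 11 were above, and of 17 oligodendrocyte markers 12, with medians of 2.76 and 3.60. Gfap, the intermediate filament of astrocytes, ran from 46.6 to 183 TPM (median 100.4) against from 0.0182 to 0.700 TPM in the periphery. Members that peripheral cells also use were not called: Aldh1l1, a folate enzyme, reached 577 TPM in liver libraries, Hopx, a cofactor of transcription, 1401 TPM in the lung, and Pdgfra, the growth factor receptor of oligodendrocyte precursors and fibroblasts, was -2.73 against the lung. In each of the remaining marker lists 1 gene was above all tissues, 8.33% to 14.3% of members tested beside 15.0% of all genes. Genes below made up 0% to 16.7% of them, beside 8.65% of all genes. These lists are small, so the shares are not read as a result about the cell types. Of 11 microglia markers 1 was above, P2ry12, a purine receptor, and 1 below, Csf1r, the growth factor receptor of macrophages. With TPM as deposited neither was called, at 0.57 and -0.0884, while Trem2, a receptor of microglia and macrophages, was above, at 0.94. Of 10 choroid plexus markers 1 was above, the transcription factor Otx2, and 1 below, the water channel Aqp1. Of the 16 markers of other brain regions only 7 passed the filter and 1 was above, Ppp1r1b, a phosphatase inhibitor of the striatum and kidney (0.87 ± 0.11). Hoxb5, a factor of the hindbrain and spinal cord, ran from 0.200 to 25.1 TPM (median 2.83) over the cerebellum libraries. Of 12 blood and endothelium markers, Slco1c1, a transporter of the blood-brain barrier, was above at 12.5 ± 4.28 TPM and Cdh5 and Kdr, genes of all endothelia, were below at -0.61 ± 0.12 and -1.69 ± 0.13. The call of Cdh5 lay at the limit and was lost without replicate 2 (-0.57), without replicate 3 (-0.56), without the time point 7:30, 19:30 or 22:30, with a pseudocount of 1 (-0.54), with upper-quartile scaling (-0.36), with TPM as deposited (-0.25) and in replicate number 1 alone (-0.44).

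**Figure D4:**
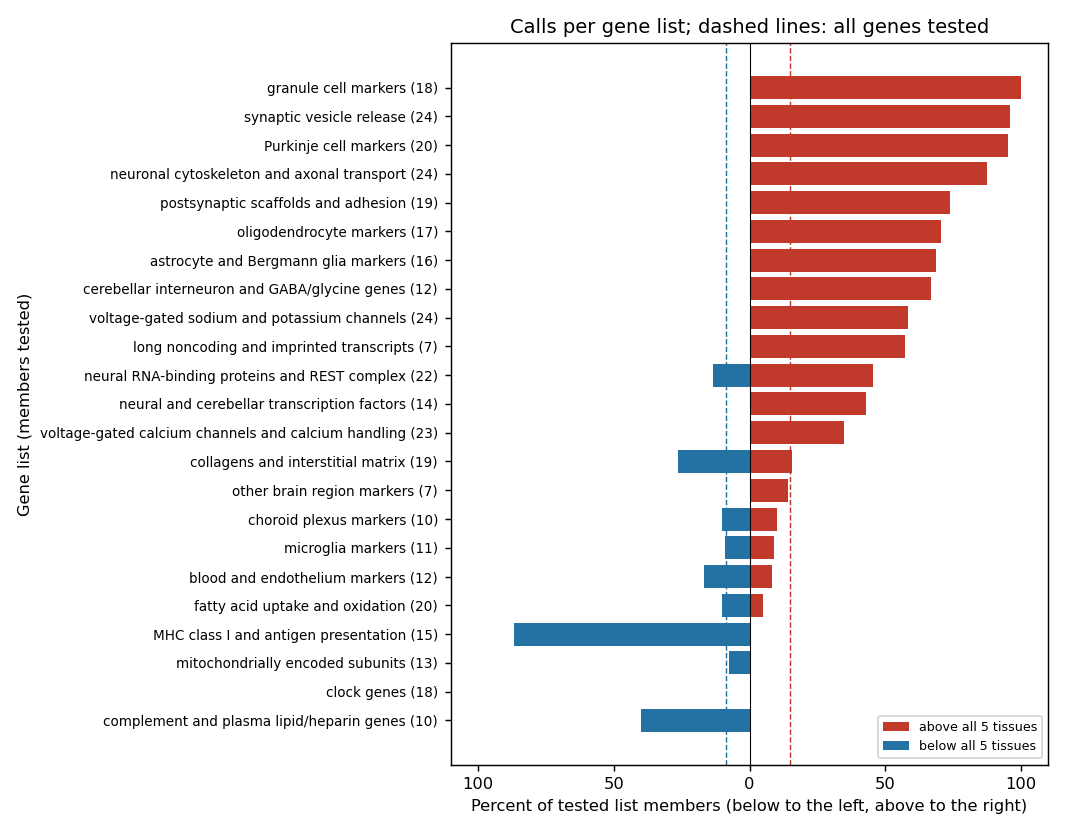
Percent of the tested members of each gene list that were above all 5 tissues (red, to the right) or below all 5 (blue, to the left), with the number tested in brackets. The dashed lines mark the 15.0% and 8.65% of all genes tested. All 18 granule cell markers were above, and no clock gene was called in either direction.

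The machinery of vesicle release was above almost throughout, with 23 of 24 genes (95.8%, beside 15.0% of all genes) and a median of 4.05. In those 23 genes the cerebellum libraries did not overlap the peripheral ones, beside 9.71% of all genes. For members that reached 5 TPM in the cerebellum only, the filter already asked for a difference. Their number is not given here, so the shares in this paragraph do not test the lists against all genes. Cplx1, the fusion clamp complexin, stood at 204 ± 68.9 TPM in the cerebellum, never exceeded 0.653 TPM elsewhere and differed by 7.61 ± 0.08. Syp, the vesicle membrane protein synaptophysin, ran from 251 to 666 TPM (median 505), stayed at or under 4.54 TPM elsewhere and differed by 6.55 ± 0.07. Vamp2, the vesicle SNARE, ran from 113 to 429 TPM (median 202) and up to 82.9 TPM elsewhere, a difference of 1.82 ± 0.07. The vesicle genes thus spanned a wide range of margins over the periphery. Synj1, a phosphoinositide phosphatase of vesicle recycling, was higher than lung by 0.48 ± 0.08 (adjusted p = 4.96e-08, limma), under the 1.5-fold limit, and passed it without replicate 1 (0.70). Of 19 postsynaptic scaffold and adhesion genes 14 were above (73.7%), led by the presynaptic adhesion protein Nrxn3 (6.16 ± 0.06). Dlgap1 and Dlg4, scaffolds of the postsynaptic density, differed by 4.63 ± 0.06 and 3.03 ± 0.09, while Shank3, another scaffold, was at -0.75 ± 0.12 against the lung. Camk2a, a kinase of excitatory synapses, stood at 8.41 ± 3.67 TPM in the cerebellum and at 208 ± 55.1 TPM in the muscle, and was not called. Among cytoskeleton and axonal transport genes 21 of 24 were above (87.5%). They include Nefl, the light neurofilament, at 60.6 to 276 TPM (median 105) in the cerebellum and at most 0.719 TPM elsewhere (6.89 ± 0.10). Gap43, a growth cone protein, and Stmn2, a microtubule regulator, differed by 3.90 ± 0.07 and 3.75 ± 0.07. Ank3, a member of the membrane skeleton, and Tubb2a, a tubulin, were not called, at 0.25 ± 0.10 and -0.09 ± 0.16.

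Ion channels were more mixed. Of 24 sodium and potassium channel genes 14 were above (58.3%, beside 15.0% of all genes). Examples were the axonal sodium channel Scn2a (5.07 ± 0.05) and its subunit Scn2b (5.21 ± 0.07). The channel of skeletal muscle, Scn4a, ran from 0 to 1.03 TPM (median 0.155) in the cerebellum and up to 187 TPM in the muscle. Of 23 calcium channel and calcium handling genes 8 were above (34.8%), and the list's median was -1.89. Cacng2, the subunit that carries AMPA receptors to the synapse, led the list at 5.96 ± 0.05. Atp2a1, the calcium pump of fast muscle, ran from 0.181 to 197 TPM (median 0.633) in the cerebellum, and its highest value belonged to the 19:30 replicate 3 library with muscle transcripts. Of 14 transcription factors tested (of 22 listed) 6 were above (42.9%). Among them were En2, a factor of the midbrain and cerebellum, at 30.3 ± 15.0 TPM, and Myt1l, a keeper of neuronal identity, at 28.1 ± 7.93 TPM. Of 7 imprinted and noncoding transcripts Snhg11, Peg3, Ndn and Snrpn were above (57.1%). Snrpn, a splicing protein of neurons, stood at 572 ± 125 TPM. How many members of these lists reached 5 TPM in the cerebellum only is not given here. For such members the filter already asked for a difference, so the shares do not test the lists against all genes.

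RNA-binding proteins were called in both directions. Of 22 tested, 10 were above (45.5%) and 3 below (13.6%), beside 15.0% and 8.65% of all genes. For none of those 3 did all cerebellum libraries lie below all peripheral ones. Elavl3 and Celf4, regulators of neuronal messages, were higher by 6.22 ± 0.07 and 6.75 ± 0.07. The members below were Elavl1, the ubiquitous stabilizer of messages, Ptbp1, the splicing repressor of most cells, and Rest, the factor that keeps neuronal genes silent outside neurons. Rest ran from 0.675 to 3.68 TPM (median 1.05) in the cerebellum and from 0.946 to 9.04 TPM in the periphery, where the ranges overlap. The heart, the lowest peripheral tissue on scaled values, had 1.83 ± 1.23 TPM and the cerebellum 1.26 ± 0.652 TPM, both before scaling. The adjusted p of 5.08e-27 (limma) belongs to the scaled log2 values, not to these means. Mean size factors were 1.39 in the cerebellum and 0.755 in the heart. With TPM as deposited none of these 3 was called, and the difference of Rest was -0.36.

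REST binds a long composite element, of which 1 stretch was searched as TTCAGCACC and another as GACAGCGCC, on both strands, in RefSeq promoter windows of 300 bases around the annotated start (GRCm38.p6). The windows covered 1553 of the genes above and 10836 of those tested. The first stretch stood in 0.371% of all 32851 windows, in 0.372% of those of tested genes, in 0.870% (18 of 2068) of those of genes above, in 2.61% (8 of 306) at 16-fold or more, and in 0 of 1237 of those of genes below. The second stretch stood in 0.326% of all windows, in 0.544% of those of tested genes, in 0.870% (18 of 2068) of those of genes above, in 0.654% (2 of 306) at 16-fold or more, and in 0.323% (4 of 1237) of those of genes below. A match describes letters, not binding. Not all windows were considered for printing, so the genes shown are not a full count. Among the genes considered, the first stretch was found at 5 that were on the lists and above all tissues. They were Syn1, a vesicle phosphoprotein, Unc13a, a priming factor, Dner, a Notch ligand of Purkinje cells, Arhgef33, an exchange factor, and Nlgn1, a postsynaptic adhesion protein. Their differences were 5.07 ± 0.07, 2.44 ± 0.09, 7.18 ± 0.04, 5.70 ± 0.10 and 2.83 ± 0.04. Their windows are shown so that the place of the match can be seen, 5′ to 3′ along the gene, with the stretches searched in capitals. Unc13a holds both, at bases 255 to 263 and 273 to 281, both in the opposite direction.
Syn1 (chrX:20920869-20921168, minus strand): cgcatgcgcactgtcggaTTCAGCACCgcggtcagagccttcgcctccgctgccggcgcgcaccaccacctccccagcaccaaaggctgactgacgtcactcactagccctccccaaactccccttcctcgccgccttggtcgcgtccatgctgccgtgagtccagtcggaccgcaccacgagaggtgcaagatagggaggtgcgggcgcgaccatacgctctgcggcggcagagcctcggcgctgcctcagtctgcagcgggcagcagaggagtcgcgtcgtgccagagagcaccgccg
Unc13a (chr8:71671708-71672007, minus strand): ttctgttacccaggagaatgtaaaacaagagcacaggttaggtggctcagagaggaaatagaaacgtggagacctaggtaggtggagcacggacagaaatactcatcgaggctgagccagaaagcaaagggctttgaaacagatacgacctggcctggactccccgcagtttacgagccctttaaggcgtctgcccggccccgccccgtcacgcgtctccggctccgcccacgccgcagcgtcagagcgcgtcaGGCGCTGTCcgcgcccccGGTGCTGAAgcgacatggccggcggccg
Dner (chr1:84696172-84696471, minus strand): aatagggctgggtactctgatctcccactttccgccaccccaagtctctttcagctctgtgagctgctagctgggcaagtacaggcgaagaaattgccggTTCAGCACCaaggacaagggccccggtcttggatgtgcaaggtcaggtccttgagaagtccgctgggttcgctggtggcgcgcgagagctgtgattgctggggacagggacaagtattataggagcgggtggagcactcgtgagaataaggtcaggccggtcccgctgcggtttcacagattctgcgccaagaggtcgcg
Arhgef33 (chr17:80307157-80307456, plus strand): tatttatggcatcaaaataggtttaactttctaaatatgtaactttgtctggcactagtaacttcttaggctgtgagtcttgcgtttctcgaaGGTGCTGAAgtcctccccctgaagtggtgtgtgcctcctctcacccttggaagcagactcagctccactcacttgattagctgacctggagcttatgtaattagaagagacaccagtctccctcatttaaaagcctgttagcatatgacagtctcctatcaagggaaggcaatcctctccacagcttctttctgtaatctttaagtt
Nlgn1 (chr3:26153937-26154236, minus strand): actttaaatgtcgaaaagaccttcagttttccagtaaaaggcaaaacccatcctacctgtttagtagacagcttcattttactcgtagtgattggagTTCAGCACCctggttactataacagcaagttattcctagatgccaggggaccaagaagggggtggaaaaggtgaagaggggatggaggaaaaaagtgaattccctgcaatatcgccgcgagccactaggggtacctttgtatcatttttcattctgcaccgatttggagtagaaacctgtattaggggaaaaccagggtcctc

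Within protein families, members took different shares in the cerebellum and elsewhere. In 14 of 36 families of near relatives, the member with most TPM in the cerebellum led in none of the 5 peripheral tissues, and in 4 it led in all 5. Snap25 made up 99.3% of the summed TPM of Snap25 and Snap23 in the cerebellum and at most 1.90% elsewhere. The ubiquitous Snap23 was below all 5 tissues, at -1.73 ± 0.08 against the nearest, and -0.58 with TPM as deposited, where it was no longer called. Of the dynamins, which cut vesicles from membranes, Dnm1 made up 91.2% in the cerebellum, while Dnm2 led in every peripheral tissue with at least 61.7%. Elavl3 led its family in the cerebellum, before Elavl4 with 34.3% and Elavl1 with 6.53%, against at least 96.2% for Elavl1 in each peripheral tissue. Ptbp2 held 63.9% against at most 20.8% elsewhere. In metabolism, Aldoc, the aldolase of Purkinje cells and astrocytes, made up 51.8% of aldolase and shared the tissue with Aldoa at 48.1%, and the share of Aldoc ran from 39.7% to 59.1% over the libraries. Cpt1c, the brain form of carnitine palmitoyltransferase 1, made up 59.2%, but between 29.3% and 75.0% over the libraries. Cpt1b, the form of muscle and heart, took up to 48.6% of the family in a cerebellum library, beside the heart transcripts given above, whose part in it was not tested. Other families kept their leading member. Cox4i1 led in all 6 tissues, as did Eef1a1, Itpr1 and Atp2b1.

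**Figure D5:**
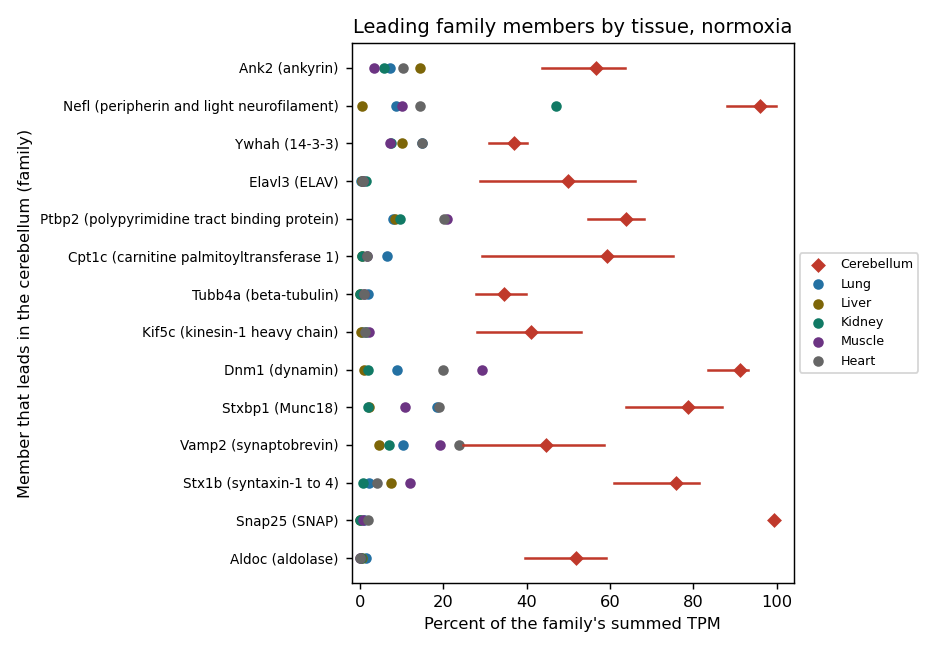
Share of the family's summed TPM (horizontal, percent of mean TPM) taken by the member that leads in the cerebellum, for the 14 families in which it leads in no peripheral tissue. Diamonds mark the cerebellum, circles the 5 peripheral tissues, and the bar the range over the 24 cerebellum libraries. Snap25 lies at 99.3% in the cerebellum and Nefl at 96.1%.

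Genes below all 5 tissues included enzymes of drug and vitamin metabolism and genes of antigen presentation. Ces1d, a carboxylesterase, ran from 0.366 to 18.4 TPM (median 4.38) in the cerebellum and from 23.3 to 1062 TPM in the periphery, without overlap. Its difference to the heart, the lowest peripheral tissue, was -4.29 ± 0.18 (adjusted p = 8.18e-51, limma). Tgm2, a protein crosslinking enzyme, differed from the liver by -3.42 ± 0.11, Inmt, a methyltransferase of amines, from the heart by -3.33 ± 0.12, and Adh1, an alcohol and retinol dehydrogenase, from the heart by -3.26 ± 0.13. Cyp4b1, a cytochrome P450 of lung and kidney, stood at 1.36 ± 1.23 TPM against 1551 ± 351 TPM in the kidney and 9.99 ± 3.19 TPM in the liver. Igfbp4, a carrier of insulin-like growth factors, Gimap4, a GTPase of lymphocytes, Car3, the carbonic anhydrase of muscle and fat, and Tmem140 were the other genes of largest difference outside the antigen presentation list, at -3.18 ± 0.11, -3.07 ± 0.09, -3.04 ± 0.30 and -3.38 ± 0.11. Car3 ran from 1.37 to 82.9 TPM (median 14.2) in the cerebellum and overlapped the peripheral range, which ran from 9.55 to 4803 TPM.

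Of 15 antigen presentation genes 13 were below all 5 tissues, beside 8.65% of all genes, and 9 were with TPM as deposited. H2-K1, a class I heavy chain, ran from 31.9 to 59.4 TPM (median 45.5) in the cerebellum and from 95.3 to 1325 TPM elsewhere, without overlap. It differed from the kidney by -2.31 ± 0.08. H2-K1 was the only gene of this list in which all cerebellum libraries lay below all peripheral ones. Cd74, the chain that guards class II molecules, and H2-Aa, a class II chain, were lower than in the liver, Cd74 at 19.3 ± 7.86 TPM against 68.3 ± 22.6 TPM and H2-Aa by a difference of -3.03 ± 0.11. H2-Q7, a class I relative, differed from the muscle by -3.12 ± 0.12. The H2 genes are near copies of each other, and reads may have been split among them. B2m, the light chain of class I, ran from 132 to 384 TPM (median 197) and differed from the kidney by -0.87 ± 0.08, a call lost with TPM as deposited (-0.48). The list's exceptions were Psmb10, a proteasome subunit (0.15 ± 0.11 against heart), and Ciita, the activator of class II genes. Of 19 collagen and matrix genes 5 were below (26.3%, beside 8.65% of all genes) and 0 were with TPM as deposited. The central nervous system matrix genes Bcan, Hapln2 and Hapln4 were above, 15.8% of the list and near the 15.0% of all genes. Bcan, the proteoglycan brevican, differed by 3.80 ± 0.07. Of 10 complement and plasma genes 4 were below (40%, beside 8.65%), among them C3 (-1.19 ± 0.17) and Cfb (-1.93 ± 0.09). Of 20 fatty acid genes 2 were below (10%, near the 8.65% of all genes), the fatty acid transporter Cd36 and the acyl-CoA synthetase Acsl1. Their differences were -1.08 ± 0.20 and -0.68 ± 0.10. That of Acsl1 was under the 1.5-fold limit in the IH libraries (-0.57) and in replicate number 1 alone (-0.52). Without replicate 3 the difference of Cd36 was -0.42 and not called, and with TPM as deposited it turned to 0.0595. Cd36 ran from 1.27 to 75.8 TPM (median 18.9) over the cerebellum libraries, and of the fatty acid genes 4 were below without the 9 libraries with most heart or muscle transcripts. Of 13 mitochondrially encoded subunits mt-Nd4l alone was below (7.69%, near the 8.65% of all genes). Their summed level ran from 63706 to 267041 TPM in the cerebellum libraries and had a median of 344069 TPM in the heart.

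Some genes were shared with a single peripheral tissue, defined as a cerebellum mean of at least 5 TPM, 1 tissue within 2-fold and the other 4 at least 4-fold below both. There were 25 with the lung, 20 with the kidney, 19 with the muscle, 10 with the heart and 7 with the liver. With the lung these were led by Scd2, a fatty acid desaturase, at 232 ± 63.4 TPM and 229.6 ± 41.7 TPM, Spock2, a matrix proteoglycan, and Lgi3, a secreted protein of synapses. With the kidney they were led by Calb1, Ppp1r1b, a phosphatase inhibitor, and Mdk, a growth factor, and those shared with the muscle included Atp1b2, a sodium pump subunit, and Fcor. With the heart the most abundant were Rasl10b, Ogdhl and Prune2, at 28.5 ± 10.9 TPM and 16.0 ± 3.83 TPM for Rasl10b. With the liver they were led by Fndc4, Reln and Zfp385b, with Fndc4 at 52.3 ± 21.2 TPM and 31.6 ± 3.10 TPM. With TPM as deposited 62 genes were shared with the lung.

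A cerebellum library held on average 10191 ± 694 genes at 5 TPM or more (SD, n = 24). That was fewer than a lung library (11119.9 ± 227) and more than those of the kidney, muscle, heart and liver, which held 9097, 8647, 7685 and 7178. Each of the 5 differences had an adjusted p of 1e-05 in a 2-sided permutation test, the smallest that 100000 resamples can give. At a threshold of 1 TPM the difference to the lung turned to 174 genes more in the cerebellum, with an adjusted p of 0.504. Long genes and genes of the X chromosome took larger shares of the genes above than of all genes. Of those matched by symbol to GENCODE, 18.9% spanned over 100 kb against 13.3% of all genes tested, and 6.07% lay on the X chromosome against 3.00%. These shares were not tested.

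The pattern was also read in the IH libraries, which the calls did not use. There 2135 genes were above all 5 tissues (15.0%) and 1231 below (8.63%), and the overlap of the genes above was 1903, or 88.9% of those in normoxia and 89.1% of those in IH. Of the genes below 1010 were shared, 81.9% and 82.0%. In 1 IH library of the cerebellum (1:30, replicate 3) heart markers reached 33.6% of their heart level, and the cerebellar markers stood at 12.03% of their normoxia level, lower than in any other cerebellum library. In another (10:30, replicate 1) heart markers stood at 20.0% and cerebellar markers at 32.4%. Peripheral IH libraries were affected too. An IH liver library (13:30, replicate 2) had liver markers at 2.06% and heart markers at 32.7% of their levels, an IH heart library (10:30, replicate 2) had cerebellar markers at 2.53%, and an IH lung library (22:30, replicate 1) liver markers at 1.00%. Without these 3 and the 4 IH cerebellum libraries with most heart or muscle transcripts, a choice made after seeing the data, 2190 genes were above and 1306 below. Of the 304 genes at least 16-fold above in normoxia 303 were above in IH. The difference between cerebellum and highest tissue itself changed with treatment, by at least 1.5-fold at an adjusted p of at most 0.05, in 1398 genes (9.81%), in 245 of the genes above and 143 of those below. Without replicate 3 that number was 3163 and without replicate 2 it was 826. Without the 13 cerebellum libraries of both groups with most heart or muscle transcripts it was 1182, and without the 3 peripheral IH libraries as well 1146.

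Over the 24 hours the 18 clock genes had a smaller median amplitude in the cerebellum than in any peripheral tissue, while none was above or below all 5 tissues in level. With TPM as deposited 1 clock gene was above, as it was without the time point 7:30 (1) and without 10:30 (1). A cosine of 24 hours passed an adjusted p of 0.05 (limma) for 0 of 18 in the cerebellum, where 10 had an unadjusted p under 0.05, and for 15 to 18 in the peripheral tissues. Of all genes tested 8.90% passed in the lung, 17.3% in the kidney, 13.3% in the liver, 4.69% in the muscle and 0.582% in the heart, and in the cerebellum 0 of 14256 (0%), with 3227 at an unadjusted p under 0.05 (22.6%). The median amplitude was 0.24 on the log2 scale against 0.83 to 1.27 elsewhere. Tested against each other, the cosine terms differed between cerebellum and liver in 14 clock genes (7.16% of all genes), between cerebellum and lung in 12 (1.63%) and between cerebellum and heart in 9 (0.302%), with 10 for the kidney (3.80%) and 12 for the muscle (1.89%). Dbp, a clock output factor, had an amplitude of 0.40 in the cerebellum and 3.12 in the liver, and Arntl, which drives the clock, 0.22 and 1.98. Without the 9 cerebellum libraries with most heart or muscle transcripts, which came mostly from the hours between 1:30 and 10:30, 0 clock genes passed (limma). That fit held 15 cerebellum libraries and none from 4:30, and the full set had already given 0. The part of the heart and muscle transcripts in the low amplitudes was not tested.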

How the data were processed

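RNA was extracted with Trizol from 6 tissues and directional libraries were sequenced, 24 for each tissue and treatment. Reads were quantified by the authors in Kallisto against the Ensembl release 102 mouse reference (mm10, per the labels), and the authors deposited TPM values per gene and library. The deposited tables hold no counts, so the depth behind a value is unknown, and the strand setting and version of Kallisto are not given in the sources used here. All libraries summed to between 994950 and 999188 TPM, and no 2 were identical.

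TPM was divided by median-of-ratios size factors over the normoxia libraries, and log2(value + 0.5) was fitted by tissue with limma 3.58.1 (trend, R 4.3.3) where the mean reached 5 TPM in a tissue or more. The largest of 5 two-sided p-values was adjusted by Benjamini-Hochberg over 14256 genes. Mean size factors ran from 0.603 in the liver to 1.71 in the lung. Named were the 12 largest differences above and below, the 12 most abundant genes 16-fold above, the 2 largest and 2 smallest differences of each list, paralog families and the 3 most abundant shared genes, without predicted genes and pseudogenes; some of these genes are not reported here. Other list members were named after their values had been seen. All members and lists were chosen with earlier results of these data known. Of the 225 named genes 133 overlap another annotated gene, and whether reads of overlapping, antisense or paralogous genes were split is not known. Positions are from GENCODE vM21, matched by symbol for 98.8% of the genes tested. Rhythms were fitted per tissue as a cosine of 24 hours.

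On simulated data 197 of 200 genes raised above all tissues by a log2 difference of 1 were recovered among 14256, with 8 false calls. Meg3, Rian, Mirg, Miat, Malat1, Neat1, H19 and Stx4 were not analysed here. Alternatives were other pseudocounts, filters and scalings, time point or replicate terms, omitted replicates and time points, the IH libraries and leaving out the libraries with most heart or muscle transcripts.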

Additional observations from a re-analysis of the deposited data

Results flagged for a closer look

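For the genes below, the difference between cerebellum and the peripheral tissue highest in normoxia differed between the treatment groups, by a test of the interaction itself (limma, adjusted over 14256 genes, 9.81% called). Values are the log2 difference after IH minus that in normoxia, n = 24 libraries per tissue and treatment, and the second value leaves out 16 libraries that held most transcripts of another tissue (13 of the cerebellum and 3 of peripheral tissues in IH). Among neuronal genes, Snap25 was lower after IH by comparison with the heart, at -1.24 (adjusted p = 1.84e-06) and -0.86, and Dlg4 with the lung, at -1.26 (adjusted p = 2.14e-13) and -1.35. Snap25 stood near 0 in the heart, and cerebellar markers reached 2.53% in the IH heart library left out of the second value. Larger differences after IH were found against the muscle for Pcp2 at 0.59 (adjusted p = 0.0266) and 0.52, against the heart for Vamp2 at 0.68 (adjusted p = 5.65e-08) and 0.56, against the lung for Stmn2 at 0.63 (adjusted p = 2.76e-04) and 0.76, and against the liver for Reln at 0.81 (adjusted p = 1.10e-05) and 0.80 and for Tubb2a at 0.89 (adjusted p = 0.00191) and 0.79. Glial and matrix genes gave 0.82 (adjusted p = 1.39e-08) and 0.71 for Hapln2 against the muscle, 0.68 (adjusted p = 0.00200) and 0.46 for Aldh1l1 against the liver, and against the lung 0.85 (adjusted p = 6.86e-09) and 0.82 for Hopx and 0.83 (adjusted p = 2.69e-05) and 0.66 for Spock2. Among genes that were below the periphery, values against the lung were 0.63 (adjusted p = 0.00525) and 0.68 for H2-Aa, 0.77 (adjusted p = 4.56e-05) and 0.76 for Psmb8, 0.68 (adjusted p = 0.00635) and 0.68 for Cdh5 and 0.68 (adjusted p = 0.00589) and 0.75 for Kdr. Against the liver they were 0.60 (adjusted p = 2.76e-04) and 0.44 for H2-K1 and 1.17 (adjusted p = 6.86e-09) and 0.99 for Cfb, and against the heart -1.06 (adjusted p = 0.00622) and -0.82 for Cd36. At the second value Pcp2, Vamp2, Aldh1l1 and H2-K1 fell under the 1.5-fold limit. In IH the liver markers had a median of 78.8% of their normoxia level over the liver libraries, and the part of this in the liver comparisons was not tested. A change of this kind can lie in the cerebellum or in the other tissue, and which of them moved was not tested.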

How the results depend on the processing

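The number of genes above all 5 tissues stayed between 1728 and 3024 over the alternatives, 2688 of them with TPM as deposited and 2845 by the ratio of mean TPM alone, where 81.9% of calls were above. The number below moved from 1233 to 474 with TPM as deposited and 629 by that ratio. Leaving out each replicate gave 2099 to 2126 above and 1213 to 1249 below. Genes shared with the lung moved from 25 to 62 with TPM as deposited, and with the kidney from 20 to 12 with a pseudocount of 1. The treatment interaction of 1398 genes ranged from 826 to 3163 without a replicate. At 1 TPM the difference in detected genes to the lung reversed, to 174. Cd36 reversed with TPM as deposited, to 0.0595. There were 142 other comparisons of a main count or a difference in detected genes with an alternative. In these it kept its direction and, for counts, stayed within 1.5 times. For list counts and levels of single genes, 3535 comparisons stayed the same and 25 counts moved. Of the levels 25 were stronger, 32 weaker and 1, that of Cd36, reversed.

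Deviations of same-numbered libraries were little correlated. Over 120 such pairs the correlation ran from -0.28 to 0.30 with a median of 0.00763, and 29 exceeded 0.1. Different tissues of the same animal may share little deviation, so these values do not show whether replicate numbers pair libraries. With the replicate block, 2140 genes were above, 1235 below and 1402 had an interaction, and 1 clock gene had a rhythm in the cerebellum instead of 0, as with TPM as deposited (1). The cause of these moves was not tested. Without counts, precision at low TPM could not be assessed.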

Other observations

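The summed TPM of choroid plexus markers spanned a 57.8-fold range over the normoxia cerebellum libraries, against 2.77-fold for granule cell markers and 2.93-fold for oligodendrocyte markers. Most of that sum was Ttr, and without it the sum ran from 50.9 to 147 TPM, a 2.89-fold range. Single members such as Folr1, a folate receptor, ran from 0.755 to 39.0 TPM, while Otx2 ran from 6.79 to 22.4 TPM. After IH the sum with Ttr ran from 58.0 to 4632 TPM. Psmb10, a proteasome subunit of immune cells, stood at 153 ± 60.4 TPM in the cerebellum and 115 ± 18.6 TPM in the lung while Psmb8 and Psmb9, its partners, were below all 5 tissues at 7.52 ± 1.88 TPM and 5.20 ± 2.64 TPM.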
